A study of Mus musculus with 17 samples.

Results

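The 10 genes described here are an antioxidant and metal-binding set measured in cardiac fibroblasts (CFs) over the first 6 days post-infarction (dpi). They were taken by symbol from a list drawn up with earlier results of these data known: *Hmox1*, *Srxn1*, *Txnrd1*, *Gclc*, *Gclm* and *Nqo1* as targets of the transcription factor NRF2, *Mt1* and *Mt2* as metallothioneins, and *Gpx3* and *Sod3* as secreted antioxidant enzymes. All 10 are among the 31053 genes of the count table, and all 10 passed the filter on low counts that left 14030 genes for testing. Poly-A RNA of sorted cells was counted at its 3′ ends by bulk RNA-seq in 17 libraries: 1, 2, 4 and 6 dpi have 3 apiece, 3 dpi has 4, and a single library stands for 5 dpi. Every library came from the heart of C57BL/6 mice of 8 to 10 weeks with the genotype Collagen1a1-GFP+, after myocardial infarction, and held cells that were GFP+ and lacked CD31 and CD45. The labels differ between groups in the day of sampling and in the sample names, which follow another pattern at 3 dpi than on every other day. Whether the 3 dpi libraries were prepared or sequenced apart is not given in the sources used here. No library from an uninfarcted heart was analysed here. GFP is a reporter of the Col1a1 promoter, and by the labels cells without GFP were not collected. The cell preparation in the paper also includes a positive selection on feeder removal beads before sorting. Nothing in the labels says which libraries came from separate animals. The bulk methods of the paper call the replicates biological, without stating whether each came from its own animal. The p-values therefore measure the spread between these libraries.

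NRF2, encoded by *Nfe2l2*, is held in the cytoplasm and degraded with the help of KEAP1, and oxidants or electrophiles release it to bind antioxidant response elements near its target genes. Its targets make glutathione, reduce thioredoxin and peroxiredoxins, break down heme and reduce quinones. Metallothioneins are small cysteine-rich proteins that bind zinc and copper, and their genes are switched on by the zinc sensor MTF1 at metal response elements and by glucocorticoids. In the infarcted heart these genes are known for their response to oxidants, heme and inflammatory signals.

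Total counts per library ranged from 8021815 to 22029938. The 7 fibroblast markers checked summed to between 12100 and 38600 normalized counts (CPM, counts scaled to library size) in each library, while the endothelial markers summed to at most 59.5 CPM and the 12 leukocyte markers to at most 246 CPM. Among these, the myeloid genes *Lyz2*, *Tyrobp* and *C1qa* reached 138, 51.3 and 42.1 CPM, and *Cd3e*, a T cell gene, was the 1 marker at 0 counts in all 17 libraries. The X-linked *Xist* and the Y-linked genes followed the day: counts of *Xist* exceeded the Y-linked counts in 1 of 3 libraries at 1 dpi (replicate 1), in 0 of the libraries at 2, 3 and 5 dpi, and in 3 of 3 at both 4 and 6 dpi. Differences between 3 and 4 dpi therefore cannot be told apart from those between these kinds of library. The 3 dpi libraries carried less mitochondrial RNA (0.321% to 0.782% of counts) than those of 1 and 2 dpi (1.35% to 1.86%), and so did the 5 dpi library (0.62%) and 6 dpi replicates 1 and 2 (0.458% and 0.425%), whereas 6 dpi replicate 3 had 1.71%. In RNA of bulk samples, fewer cells of a type and less RNA per cell cannot be told apart.

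Of the 10 genes, 7 were lower at 6 than at 1 dpi: *Hmox1*, *Srxn1*, *Txnrd1*, *Gclc*, *Gclm*, *Mt1* and *Mt2*, by 1.99-fold (*Txnrd1*) to 7.69-fold (*Mt2*). None was higher. Their libraries of 1 and 6 dpi did not overlap for any of the 7, and 15.3% of all genes tested were lower without overlap. Of all genes, 5.21% were called lower in this comparison, at a Benjamini-Hochberg adjusted p under 0.05 in the quasi-likelihood test of edgeR. The median log2 fold change was -1.41 over the 10 genes and 0.03 over all genes tested. Over the whole time course 6 of the 10 changed (*Hmox1*, *Srxn1*, *Gclc*, *Gclm*, *Mt1* and *Mt2*), against 15% of all genes. The count of 7 was 6 when 1 dpi replicate 1, where *Xist* prevailed, stood alone for 1 dpi. It was 4 without 1 dpi replicate 1, without 6 dpi replicate 1 or without 6 dpi replicate 2, with *Hmox1*, *Srxn1* and *Mt2* among the 4 each time. With 6 dpi replicate 3, whose mitochondrial share lay in the range of 1 dpi, standing alone for 6 dpi, only *Hmox1* was called (-2.20, edgeR adjusted p = 0.0069), and the other 6 had log2 fold changes of -3.29 (*Mt2*) to -0.83 (*Gclm*). In that fit 209 of all genes were called, against 1700 with all libraries, and the spread of the lone library was taken from the other days. Without the 3 dpi libraries, 7 were lower at 6 than at 1 dpi and 6 changed over the time course.

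**Figure D1:**
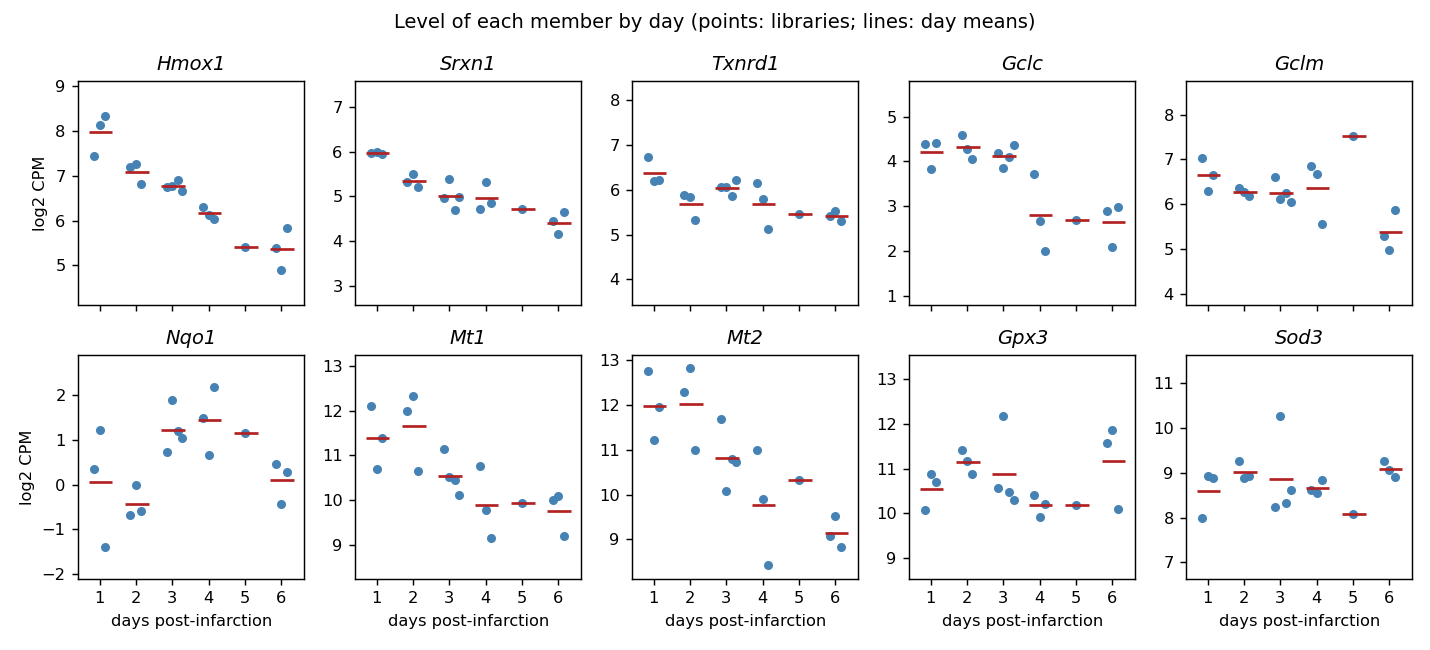
Level of each of the 10 genes in log2 CPM (vertical axis, with the same span in each panel) against days post-infarction (horizontal axis), with 1 point per library and a line at the mean of each day. Hmox1 stepped down from a mean of 7.98 at 1 dpi to 5.37 at 6 dpi, whereas the ranges of Gpx3 and Sod3 at these days overlapped.

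No step between neighbouring days passed the threshold of the edgeR test for any of the 10 genes. Between 1 and 2 dpi, 0 of the 10 genes changed (background 0.178% of all genes), with 3 at an unadjusted p under 0.05 by edgeR and 0 called by DESeq2. Between 2 and 3 dpi it was also 0 of 10 (background 2.94%), with 3 at an unadjusted p under 0.05 and 1, *Mt1*, called by DESeq2. Between 3 and 4 dpi, 0 of 10 changed (background 2.71%), with 2 at an unadjusted p under 0.05 and *Gclc* called by DESeq2. Between 4 and 6 dpi, 0 of 10 changed (background 0.513%), with 4 at an unadjusted p under 0.05 and *Gclm* called by DESeq2.

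*Hmox1* encodes heme oxygenase 1, which breaks heme into biliverdin, iron and carbon monoxide. Its level was 174, 283 and 324 CPM in the libraries of 1 dpi, 147, 154 and 113 CPM at 2 dpi, and 108, 109, 120 and 101 CPM at 3 dpi. It was 79.0, 69.9 and 65.7 CPM at 4 dpi, 42.4 CPM in the library of 5 dpi, and 41.8, 29.7 and 56.7 CPM at 6 dpi. Every library of 4 to 6 dpi lay below every library of 1 to 3 dpi, and the ranges of 1 and 2 dpi did not overlap either. Of all genes tested, 15.1% did not overlap between 1 and 2 dpi, and 7.03% were lower at 2 dpi without overlap. The split after 3 dpi, like other splits of days described below, was not a planned comparison, and its share over all genes is not given. The difference between 6 and 1 dpi was -2.61 on the log2 scale (SE 0.28, edgeR adjusted p = 8.3e-06), 6.09-fold lower, with a range of -2.86 to -2.40 when each of the 16 libraries other than that of 5 dpi was left out in turn. The steps from 1 to 2 dpi (-0.91, SE 0.27, edgeR adjusted p = 0.30) and from 4 to 6 dpi (-0.74, SE 0.27, edgeR adjusted p = 0.14) did not pass. *Hmox1* (ENSMUSG00000005413) lies on the plus strand of chromosome 8 from 75093621 to 75100589 (GRCm38).

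*Srxn1* and *Txnrd1* serve the thioredoxin system: sulfiredoxin repairs overoxidized peroxiredoxins and thioredoxin reductase 1 reduces cytosolic thioredoxin with NADPH. *Srxn1* was at 62.4, 63.9 and 61.1 CPM at 1 dpi and at 39.4, 44.7 and 36.7 CPM at 2 dpi. It ranged from 25.6 to 41.6 CPM over 3, 4 and 5 dpi and was at 21.6, 17.6 and 24.7 CPM at 6 dpi. The 3 libraries of 1 dpi stood above all 14 later ones, and those of 6 dpi below all others. At 6 against 1 dpi the difference was -1.55 (SE 0.24, edgeR adjusted p = 3.9e-04), with values of -1.67 to -1.43 over the same 16 omissions. *Txnrd1* was at 107, 73.9 and 74.6 CPM at 1 dpi and at 42.3, 46.5 and 39.3 CPM at 6 dpi, with no overlap, a difference of -0.99 (SE 0.26, edgeR adjusted p = 0.019). In between it ranged from 34.9 to 75.1 CPM and overlapped both days. Its fall was not called without 1 dpi replicate 1 (edgeR adjusted p = 0.093) or without 6 dpi replicate 1 (0.069), and its change over the time course was called by DESeq2 (adjusted p = 0.023) but not by edgeR (0.070).

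*Srxn1* (ENSMUSG00000032802) lies on the plus strand of chromosome 2 from 152105516 to 152111376, and *Txnrd1* (ENSMUSG00000020250) on the plus strand of chromosome 10 from 82833951 to 82897712. Among the NRF2 targets the *Srxn1* promoter is shown because it held both patterns searched for, at separate places. The first was the antioxidant response element core, TGACNNNGC on either strand, and the second a site of the kind bound by NRF2 with small MAF proteins, TGANTCAGC on either strand. RefSeq windows were found for 7 of the 10 genes, 9 in all. The 2 patterns overlap where the N of the second is C. RefSeq gives the window from 250 bases before to 50 bases after the start, on GRCm38.p6, chr2:152105274-152105573, plus strand, and the capitals mark the MAF-type site and, past the start, the response element core on the other strand.
Srxn1 promoter: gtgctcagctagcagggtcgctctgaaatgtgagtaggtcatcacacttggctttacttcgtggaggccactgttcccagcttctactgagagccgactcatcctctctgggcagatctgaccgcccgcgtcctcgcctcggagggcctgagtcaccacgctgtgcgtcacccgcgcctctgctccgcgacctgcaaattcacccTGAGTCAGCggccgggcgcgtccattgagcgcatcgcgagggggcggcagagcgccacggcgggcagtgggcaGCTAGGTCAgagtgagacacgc
The MAF-type site began 45 bases before the start site. Such a site was present in 1.19% of the 32851 RefSeq promoter windows of this length, and an antioxidant response element core in 12.4%. Besides *Srxn1*, the core was found in the windows of *Mt2*, *Gclm* and in 1 of 3 for *Txnrd1*. A match is a sequence description, and binding was not measured.

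*Gclc* and *Gclm* encode the catalytic and modifier subunits of glutamate-cysteine ligase, the rate-limiting enzyme of glutathione synthesis. *Gclc* stayed within 1 range over the first 3 days, at 20.6, 14.2 and 20.9 CPM at 1 dpi, 24.1, 19.2 and 16.6 CPM at 2 dpi, and 18.0, 14.2, 16.9 and 20.5 CPM at 3 dpi. It was at 13.1, 6.17 and 3.85 CPM at 4 dpi, 6.35 CPM at 5 dpi, and 7.23, 4.09 and 7.68 CPM at 6 dpi. All 7 libraries of 4 to 6 dpi lay below all 10 earlier ones, for which the share over all genes is likewise not given. At 6 against 1 dpi the difference was -1.55 (SE 0.37, edgeR adjusted p = 0.011), and without 6 dpi replicate 2 it was -1.31 (edgeR adjusted p = 0.063). Between 3 and 4 dpi it was -1.17 (SE 0.35, edgeR adjusted p = 0.079), and DESeq2 called it (adjusted p = 0.026), as did edgeR without 3 dpi replicate 2 (0.048) or without 4 dpi replicate 1 (0.020).

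*Gclm* took another course. It was at 130, 78.4 and 100 CPM at 1 dpi, between 66.2 and 97.4 CPM at 2 and 3 dpi, and at 115, 102 and 46.6 CPM at 4 dpi. The library of 5 dpi, at 183 CPM, was the highest of all 17, and those of 6 dpi, at 38.6, 31.4 and 57.9 CPM, lay below all but 4 dpi replicate 3. The difference between 6 and 1 dpi was -1.27 (SE 0.31, edgeR adjusted p = 0.012), and it was not called without 1 dpi replicate 1 (-1.07, edgeR adjusted p = 0.067), 6 dpi replicate 1 (-1.2, 0.061) or 6 dpi replicate 2 (-1.09, 0.074). Its change over the time course was likewise lost without the 5 dpi library (edgeR adjusted p = 0.055), 6 dpi replicate 1 (0.064) or 6 dpi replicate 2 (0.063). *Gclc* (ENSMUSG00000032350) lies on the plus strand of chromosome 9 from 77754535 to 77794485 and *Gclm* (ENSMUSG00000028124) on the plus strand of chromosome 3 from 122245557 to 122270732.

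*Nqo1* encodes NAD(P)H quinone dehydrogenase 1 and is widely used as an NRF2 target. By raw library totals, 3 counts correspond to between 0.136 and 0.374 CPM. *Nqo1* was close to the lower limit of these libraries, with 5 to 53 counts in each. It was at 1.14, 2.19 and 0.244 CPM at 1 dpi, at 0.482, 0.850 and 0.519 CPM at 2 dpi and at 1.51, 3.54, 2.16 and 1.92 CPM at 3 dpi. It was at 2.66, 1.44 and 4.38 CPM at 4 dpi, 2.08 CPM at 5 dpi and 1.23, 0.597 and 1.08 CPM at 6 dpi. The libraries of 3 to 5 dpi lay above all of 2 and 6 dpi, while 1 dpi replicate 2 lay among them. At 6 against 1 dpi the difference was -0.30 (SE 0.76, 95% interval from -1.88 to 1.28, edgeR adjusted p = 0.84), an interval that holds falls as large as that of *Gclc*. The libraries of 1 dpi span 0.244 to 2.19 CPM, and without 1 dpi replicate 2 the difference was 0.57. Between 2 and 3 dpi it was 1.87 (SE 0.74, edgeR adjusted p = 0.18). *Nqo1* (ENSMUSG00000003849) lies on the minus strand of chromosome 8 from 107388225 to 107403206.

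*Mt1* and *Mt2*, the metallothionein genes that most tissues express, lie side by side on the plus strand of chromosome 8, *Mt2* (ENSMUSG00000031762) from 94172664 to 94173568 and *Mt1* (ENSMUSG00000031765) from 94179082 to 94180327, with 5513 bases between them. Their promoters are shown because the pair moved together. RefSeq gives both windows on GRCm38.p6, chr8:94178839-94179138 for *Mt1* and chr8:94172368-94172667 for *Mt2*, both on the plus strand, and the capitals mark the metal response element core, TGCACNC or TGCGCNC on either strand.
Mt1 promoter: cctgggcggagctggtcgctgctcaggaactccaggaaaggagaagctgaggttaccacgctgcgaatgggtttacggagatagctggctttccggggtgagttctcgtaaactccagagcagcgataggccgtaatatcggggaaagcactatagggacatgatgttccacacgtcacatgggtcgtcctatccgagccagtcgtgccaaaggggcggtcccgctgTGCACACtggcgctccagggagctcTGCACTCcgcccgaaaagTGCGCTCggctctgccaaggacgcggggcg
Mt2 promoter: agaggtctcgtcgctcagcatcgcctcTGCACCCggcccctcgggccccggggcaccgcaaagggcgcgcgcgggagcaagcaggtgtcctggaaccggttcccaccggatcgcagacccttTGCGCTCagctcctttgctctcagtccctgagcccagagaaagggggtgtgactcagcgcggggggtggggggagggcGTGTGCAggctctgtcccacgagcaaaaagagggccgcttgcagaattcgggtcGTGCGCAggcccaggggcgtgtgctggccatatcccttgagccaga
*Mt1* held 3 such cores, of which the first began 23 bases before the start site, and *Mt2* held 4. Of all 32851 windows, 1.97% held at least 3 and 0.517% at least 4. The *Gclm* window also held 3. The *Mt2* window held, in lower case here, 1 antioxidant response element core that is also a MAF-type site, which began 79 bases before the start. No window was found for *Hmox1*, *Gclc* or *Sod3*.

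*Mt1* was at 4404, 1669 and 2679 CPM at 1 dpi and at 4049, 5106 and 1621 CPM at 2 dpi. It was at 2241, 1460, 1393 and 1104 CPM at 3 dpi, and at 1735, 873 and 573 CPM at 4 dpi. The 5 dpi library was at 981 CPM and those of 6 dpi were at 1027, 1093 and 588 CPM. All 6 libraries of 1 and 2 dpi lay above those of 5 and 6 dpi, and the libraries of each of the first 2 days spanned more than a log2 unit. At 6 against 1 dpi the difference was -1.69 (SE 0.47, edgeR adjusted p = 0.023). The call was lost without 1 dpi replicate 1 (-1.28, edgeR adjusted p = 0.12) and without 6 dpi replicate 1 (-1.79, 0.064), 6 dpi replicate 2 (-1.85, 0.055) or 6 dpi replicate 3 (-1.46, 0.061). Between 2 and 3 dpi it was -1.21 (SE 0.42, edgeR adjusted p = 0.12), which DESeq2 called (adjusted p = 0.047).

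*Mt2* was at 6927, 2409 and 3968 CPM at 1 dpi and at 5047, 7218 and 2034 CPM at 2 dpi. It was at 3322, 1087, 1769 and 1702 CPM at 3 dpi and at 2051, 954 and 343 CPM at 4 dpi. The 5 dpi library was at 1288 CPM and those of 6 dpi were at 538, 739 and 453 CPM. The libraries of 6 dpi lay below all others except 4 dpi replicate 3. The difference between 6 and 1 dpi was -2.94 (SE 0.59, edgeR adjusted p = 0.0032), 7.69-fold lower, and it was called after each of the 16 omissions (-3.25 to -2.48). Its estimate was the lowest of the 10 genes, but without 1 dpi replicate 1 that of *Hmox1* was lower (-2.84 against -2.48), and the difference between both genes was not tested. *Mt2* shares 432 exonic bases with the antisense gene *Gm45774*, which had 18 to 930 counts per library. The strand setting of the counting is not given in the sources used here, so reads of the 2 genes cannot be told apart.

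Relative to *Mt1*, *Mt2* was lower in each library of 6 dpi than in each of 1 dpi. Counts of *Mt2* were 1.57, 1.44 and 1.48 times those of *Mt1* at 1 dpi and 0.524, 0.676 and 0.771 times at 6 dpi. *Mt2* had more counts than *Mt1* in all 6 libraries of 1 and 2 dpi and fewer in the 3 libraries of 6 dpi, in 3 dpi replicate 2 and in 4 dpi replicate 3. The log2 ratio had a mean of 0.58 ± 0.06 (SD, n = 3) at 1 dpi, 0.38 ± 0.10 (n = 3) at 2 dpi, 0.28 ± 0.48 (n = 4) at 3 dpi, -0.12 ± 0.54 (n = 3) at 4 dpi and -0.62 ± 0.28 (n = 3) at 6 dpi, and it was 0.39 in the 5 dpi library. The change of -1.21 between 1 and 6 dpi gave a 2-sided exact permutation p of 0.10, the smallest that 3 against 3 libraries allow. The ratio was chosen after the values of both genes were seen. Since it compares counts of different transcripts, its value on a given day is no ratio of molecules, and only the change between days is described.

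**Figure D2:**
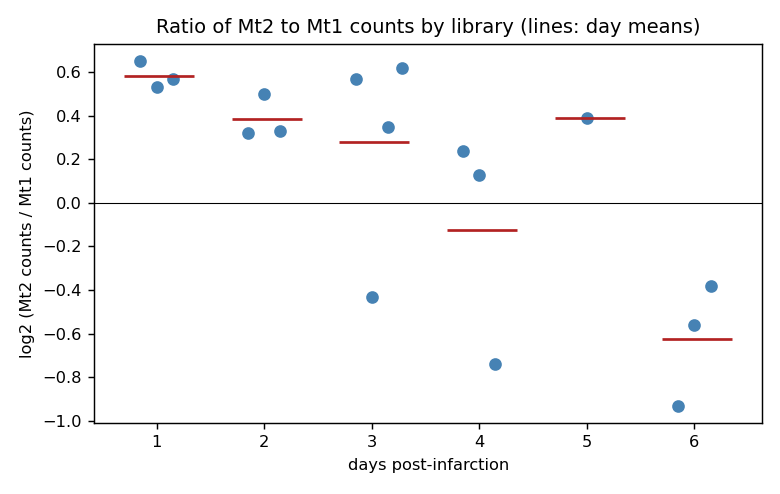
Log2 ratio of Mt2 to Mt1 counts (vertical axis) against days post-infarction (horizontal axis), with 1 point per library and a line at the mean of each day. All 6 libraries of 1 and 2 dpi lie above 0 and all 3 of 6 dpi below it, while 3 and 4 dpi hold libraries on both sides.

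*Gpx3* and *Sod3* encode secreted enzymes, glutathione peroxidase 3 and the extracellular superoxide dismutase, and neither passed the test in any comparison. *Gpx3* was at 1072, 1886 and 1669 CPM at 1 dpi, at 2718, 2307 and 1889 CPM at 2 dpi and at 1533, 4611, 1423 and 1252 CPM at 3 dpi. It was at 1373, 965 and 1185 CPM at 4 dpi, 1171 CPM at 5 dpi and 3037, 3744 and 1108 CPM at 6 dpi. The high libraries, 3 dpi replicate 2 and 6 dpi replicates 1 and 2, were spread over 2 days, and 1 and 6 dpi overlapped. The difference between 6 and 1 dpi was 0.77 (SE 0.46, 95% interval from -0.19 to 1.73, edgeR adjusted p = 0.29). Between 4 and 6 dpi it was 1.16 (SE 0.46, edgeR adjusted p = 0.18), and it was called without 6 dpi replicate 3 (1.53, edgeR adjusted p = 0.039) or without 3 dpi replicate 2 (1.16, 0.050).

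*Sod3* was at 253, 490 and 476 CPM at 1 dpi and at 616, 534 and 480 CPM at 6 dpi. At 3 dpi it was at 301, 1247, 322 and 392 CPM, and over 2, 4 and 5 dpi it ranged from 272 to 613 CPM. The same library, 3 dpi replicate 2, was the highest of all 17 for both genes. At 6 against 1 dpi *Sod3* differed by 0.42 (SE 0.42, 95% interval from -0.45 to 1.29, edgeR adjusted p = 0.55), so a fall by more than 0.45 on the log2 scale lies outside its interval. The difference of these genes from the 7 that fell was not tested. *Gpx3* (ENSMUSG00000018339) lies on the plus strand of chromosome 11 from 54902453 to 54910377 and *Sod3* (ENSMUSG00000072941) on the plus strand of chromosome 5 from 52363791 to 52371418.

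The days were also grouped into 3 to 5 dpi against 1 and 2 dpi, the window the study singles out, with equal weight for each day, so that the single 5 dpi library made up 33.3% of the later side. Here 5 of the 10 genes were lower, *Hmox1* (-1.45, SE 0.20, edgeR adjusted p = 8.8e-05), *Mt2* (-1.70, SE 0.42, 0.016), *Mt1* (-1.47, SE 0.35, 0.010), *Gclc* (-1.02, SE 0.27, 0.022) and *Srxn1* (-0.74, SE 0.17, 0.0098). By the same rule 2.24% of all genes were called lower, and the median was -0.56 over the 10 genes and 0.00 over all. *Gclm* (0.28, SE 0.22, edgeR adjusted p = 0.51) and *Txnrd1* (-0.30, SE 0.19, 0.38) did not pass, and *Nqo1* (1.45, SE 0.54, 0.11) was higher by DESeq2 only (adjusted p = 0.047). No gene of the 10 had libraries without overlap between the 2 groups of days (background 0.613% lower). Without the 3 dpi libraries, which left 4 and 5 dpi with equal weight, the same 5 were called. They were also called with each day weighted by its number of libraries, which gave the 5 dpi library 12.5% (*Hmox1* -1.19, *Gclc* -0.76 and *Gclm* 0.02). Restricted to the libraries in which Y-linked counts exceeded *Xist*, the fit lost 4 dpi and 1 dpi replicate 1, and 3 and 5 dpi had equal weight. Of the libraries kept, 1 dpi replicate 2 had 461 counts of *Xist* beside 1455 Y-linked counts. Only *Hmox1* was called in this fit. The fold changes were -0.83 for *Gclc*, -0.78 for *Srxn1*, -1.18 for *Mt1* and -1.29 for *Mt2*, with edgeR adjusted p between 0.052 and 0.11. The call of *Gclc* was also lost without 1 dpi replicate 3 (-0.99, edgeR adjusted p = 0.051), 2 dpi replicate 1 (-0.96, 0.052) or the 5 dpi library (-0.73, 0.087).

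**Figure D3:**
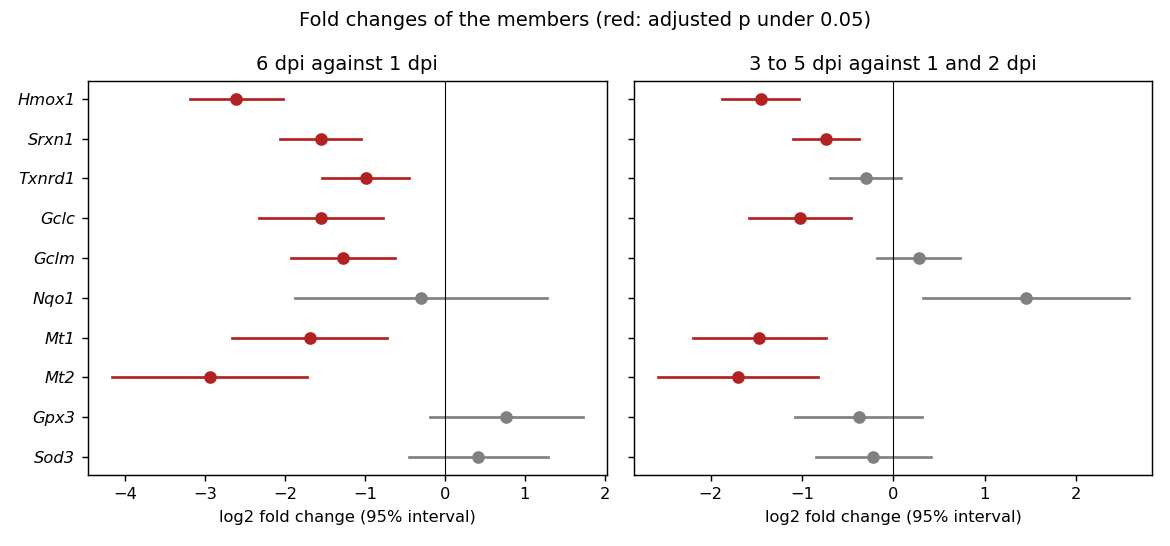
Log2 fold change (horizontal axis) of each of the 10 genes at 6 against 1 dpi (left) and at 3 to 5 against 1 and 2 dpi (right), where points are edgeR estimates, bars their 95% intervals and red marks an adjusted p under 0.05. Txnrd1 and Gclm are red on the left only, and Gpx3, Sod3 and Nqo1 are grey in both panels.

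Across the 17 libraries the 10 genes did not vary as 1 group. *Mt1* and *Mt2* had a Pearson r of 0.95, and after the mean of each day was removed, over the 16 libraries of days with replicates, it was 0.91. *Gpx3* and *Sod3* had an r of 0.80, and 0.79 within days. For *Hmox1* and *Srxn1* the r of 0.89 was 0.26 within days, whereas for *Gclc* and *Gclm* it was 0.41 overall and 0.77 within days. *Txnrd1* went with *Mt2* at 0.72 overall and 0.84 within days, and *Gclm* with *Sod3* at -0.54 and -0.38. These values describe libraries that share day, depth and scaling, and carry no test. Within 4 dpi, replicate 3 was lowest for *Gclc* (1.99 log2 CPM), *Gclm* (5.55), *Txnrd1* (5.13), *Mt1* (9.16) and *Mt2* (8.42). Its mitochondrial share was 2.04%. Within 3 dpi, replicate 2 was highest for *Gpx3* (12.17) and *Sod3* (10.28). Values of r without these libraries were not computed.

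The genes most like each member by Pearson r of log2 CPM were searched among all other tested genes, members included, with a mean of at least 100 counts. For *Hmox1* they were *Ch25h* (0.91), *Ero1l* (0.90) and *Eci1* (0.90), and for *Srxn1* they were *Eci1* (0.94), *Plaur* (0.90) and *Utp4* (0.90). For *Mt1* they were *Mt2* (0.95), *Gm45774* (0.95) and *Prg4* (0.87), and *Mt2* had *Mt1* (0.95), *Gm45774* (0.94) and *Prg4* (0.92), so that the antisense gene that shares bases with *Mt2* ranked high for both. For *Txnrd1* they were *Gm4353* (0.88), *Rrn3* (0.87) and *Heatr1* (0.87), for *Gclc* they were *Dimt1* (0.87), *Cmtm6* (0.85) and *Slc2a1* (0.85), and for *Gclm* they were *Amd2* (0.88), *Eif2s2* (0.87) and *Psma5* (0.87). For *Gpx3* they were *Macrod1* (0.93), *Flot1* (0.93) and *Zfp771* (0.91), and for *Sod3* they were *Slc39a3*, *Rnf10* and *Atn1*, at 0.89 each. *Nqo1*, at its low counts, had *Tnfaip8* (0.83), *H2afx* (0.77) and *Nrp2* (0.75). These are the top 3 of 8918 genes searched (8919 for *Nqo1*), over 17 libraries that share day, depth and scaling.

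The other genes of the same pathways were read from 7 lists of 57 genes, of which 55 were tested. At 6 against 1 dpi 8 of the 55 changed, against 12.1% of all genes in either direction, with 1 higher and 7 lower (background 5.21% lower), a median of -0.31 and 13 called by DESeq2. Both backgrounds are those of edgeR, which called 1700 of all genes, whereas DESeq2 called 2427. With 6 dpi replicate 3 alone for 6 dpi, only *Abcc1* of the 8 called by edgeR was called. Of the 6 regulators of NRF2, only *Nfe2l2* itself was called lower (-1.40, SE 0.26, edgeR adjusted p = 0.0017). Its means were 6.62, 6.73, 7.28, 6.28, 6.13 and 5.2 log2 CPM from 1 to 6 dpi. Its fall between 3 and 4 dpi passed as well (-1.0, SE 0.24, edgeR adjusted p = 0.032), but not without 3 dpi replicate 1 or 3 or 4 dpi replicate 1 or 2 (edgeR adjusted p between 0.073 and 0.15). *Keap1*, the adaptor that marks NRF2 for degradation, differed by 0.03 (SE 0.24) and *Bach1*, a repressor at the same elements, by -0.80 (SE 0.34, edgeR adjusted p = 0.13). *Mafg* (-0.83), *Maff* (-0.74) and *Mafk* (0.84) were not called, and 5 of the 6 regulators had an edgeR unadjusted p under 0.05. Of these, *Mafk* went in the opposite direction to the others. At least 12.1% of all genes had such a p, since every gene called by edgeR does.

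In the glutathione list 4 of 10 genes changed at 6 against 1 dpi. *Gsr*, glutathione reductase, was lower by -1.60 (SE 0.33, edgeR adjusted p = 0.0042) and *Mgst1*, a microsomal glutathione transferase, by -1.10 (SE 0.32, 0.032). *Slc7a11*, the cystine importer, was lower (-5.78, SE 1.2, edgeR adjusted p = 0.0040) and the transferase *Gsta4* higher (4.26, SE 0.97, 0.0075), at means of only 21.3 and 33.9 counts per library. The call of *Mgst1* was lost when any 1 of the 3 libraries of 1 dpi was left out (edgeR adjusted p between 0.060 and 0.094), without 6 dpi replicate 1 (0.15) or without 6 dpi replicate 2 (0.084), and that of *Gsta4* without 6 dpi replicate 2 (0.052). *Slc3a2*, the partner chain of the importer, differed by -0.38 (SE 0.24) and was not called. Of 5 genes that supply NADPH, 0 changed at 6 against 1 dpi by edgeR or DESeq2, with 1 at an unadjusted p under 0.05.

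Among 14 thioredoxins, peroxiredoxins, superoxide dismutases and catalase, only *Sod2*, the mitochondrial superoxide dismutase, was lower at 6 than at 1 dpi (-1.23, SE 0.23, edgeR adjusted p = 0.0020). *Abcc1*, an exporter of glutathione conjugates, was the 1 of 8 heme and quinone genes that was lower (-1.71, SE 0.23, edgeR adjusted p = 1.1e-04), and *Slc39a14*, a zinc and iron importer, the 1 of 6 metal genes tested (-1.49, SE 0.39, 0.018). The call of *Slc39a14* was lost without 1 dpi replicate 1 (edgeR adjusted p = 0.062), 6 dpi replicate 1 (0.097) or 6 dpi replicate 2 (0.076). The metal sensor *Mtf1* differed by -0.26 (SE 0.22, edgeR adjusted p = 0.47), and the zinc exporter *Slc30a1*, another MTF1 target, by -1.31 (SE 0.56, 0.13). *Mt3* and *Mt4*, the other metallothioneins listed, had means of 1.8 and 0.9 counts and were not tested. Of the 6 metal genes tested, 4 had an edgeR unadjusted p under 0.05 and 2 were called by DESeq2. Of the 6 selenoprotein and secreted redox genes, 0 changed in this comparison by edgeR, with 4 at an unadjusted p under 0.05 and 3 called by DESeq2. Beside these counts, DESeq2 called 2427 of all genes, and at least 12.1% of all genes had an edgeR unadjusted p under 0.05.

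In the window of 3 to 5 dpi 7 of the 55 changed, against 7.48% of all genes in either direction, with 2 higher and 5 lower (background 2.24% lower). The peroxiredoxin *Prdx4* (1.10, SE 0.24, edgeR adjusted p = 0.0057) and the peroxidase *Gpx7* (0.94, SE 0.16, 6.2e-04), which both act in the endoplasmic reticulum, were higher. *Prdx1*, *Slc7a11*, *Gstm1*, *Gstp1* and *Sod2* were lower, by -1.60, -2.67, -0.94, -0.71 and -0.58. Of 25 alternatives, single libraries left out included, the call was lost in 9 for *Slc7a11*, 10 for *Gstm1*, 14 for *Gstp1* and 9 for *Sod2* (edgeR adjusted p up to 0.12, 0.090, 0.10 and 0.12), and in 1 for *Prdx4*, when libraries in which *Xist* prevailed were left out (0.061). *Prdx1*, a cytosolic peroxiredoxin, fell between 2 and 3 dpi (-2.20, SE 0.48, edgeR adjusted p = 0.018) and rose between 3 and 4 dpi (3.16, SE 0.50, 0.0018), of which the fall was not called without 2 dpi replicate 2 (edgeR adjusted p = 0.084), 2 dpi replicate 3 (0.094) or 3 dpi replicate 4 (0.057). It had means of 8.25, 7.56, 5.42, 8.36, 5.35 and 7.50 log2 CPM from 1 to 6 dpi. Without the 3 dpi libraries its difference in the window was -1.12 (edgeR adjusted p = 0.22), and without the 5 dpi library it was -1.04 (0.090). Near-identical copies of *Prdx1* and *Gstp1* exist in the mouse genome, and how reads shared with them were counted was not tested. Between 3 and 4 dpi *Txnip* (-1.43, SE 0.37, edgeR adjusted p = 0.045) and *Abcc1* (-1.04, SE 0.21, 0.011) were lower too, the call of *Txnip* being lost in 13 of 21 alternatives (edgeR adjusted p up to 0.18). Between 1 and 2 dpi 0 of the 55 changed by edgeR or DESeq2, with 9 at an unadjusted p under 0.05, and between 4 and 6 dpi 0 changed by edgeR, with 14 at an unadjusted p under 0.05 and 5 called by DESeq2.

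**Figure D4:**
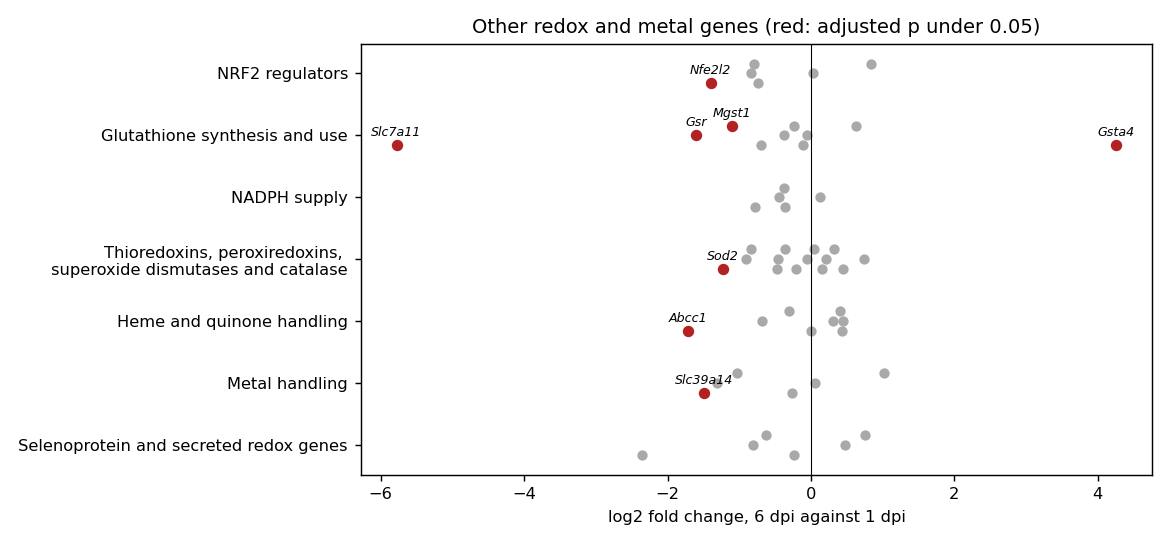
Log2 fold change at 6 against 1 dpi (horizontal axis) of the 55 tested genes of 7 lists (rows), where red points have an edgeR adjusted p under 0.05 and are named. Of the 8 red points only Gsta4 lies to the right of 0, and the NADPH and selenoprotein rows hold none.

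Other measures moved with these days. The 14 genes of the dissociation response list summed to between 6380 and 10500 CPM at 1 dpi and between 6080 and 7040 CPM at 6 dpi, and 3 of them, the heat shock genes *Hspa1a* (-1.66), *Hspa1b* (-2.15) and *Hsph1* (-2.19), were lower at 6 dpi. The 8 cardiomyocyte markers summed to between 18.7 and 41.9 CPM at 1 dpi and between 86.7 and 188 CPM at 6 dpi, and 6 of them were higher. The 5 mural markers summed to between 20.4 and 59.4 CPM at 1 dpi and between 80.9 and 86.7 CPM at 6 dpi, without overlap. Of these, *Rgs5* (1.71) and *Cspg4* (2.47) were higher at 6 dpi, whereas *Kcnj8* (-0.29), *Abcc9* (0.41) and *Myh11* (0.43) were not called. In the window *Rgs5* (1.89) and *Cspg4* (2.07) were higher too, and *Kcnj8* (0.06), *Abcc9* (0.14) and *Myh11* (0.35) were not called. There the list summed to between 42.1 and 159 CPM, against 20.4 to 59.4 CPM before. The 12 leukocyte markers were highest at 3 dpi (41.1 to 246 CPM) and in the 5 dpi library (81.9 CPM), against 9.60 to 37.6 CPM elsewhere, with *Ptprc*, which encodes CD45, at 0 counts in 12 libraries and at most 37. The 5 erythroid markers summed to between 272 and 2690 CPM at 4 dpi, against 27.5 to 118 CPM at 1 dpi and 55.8 to 506 CPM at 6 dpi. The part of these lists and of the mitochondrial share in the results was not tested.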

How the data were processed

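Bulk MARS-seq counts of 17 libraries were analysed. According to their methods and notes, the authors used bcl2fastq (1.2.4) for demultiplexing, STAR for alignment to mm10 and featureCounts with an Ensembl annotation. The deposited values are raw counts per gene. No collapsing of PCR copies is stated, so counting floors (3 counts) cover counting error only. The 10 members and the pathway lists were chosen with earlier results of these data known.

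Genes entered the test if 3 or more libraries had 10 or more counts. In R (4.3.3), edgeR (4.0.16) fitted day, with 6 levels, to TMM-scaled counts of the 17 libraries together, its quasi-likelihood F-test was applied, and p-values were adjusted over all genes by the Benjamini-Hochberg method (threshold 0.05). DESeq2 (1.42.0) was an alternative. Library groups came from the titles. The title and the description of the 5 dpi library give different replicate numbers, and that of the title was used, also for the replicate block. CPM of the members and all log2 CPM are scaled to TMM library sizes, the latter with a prior count of 2. CPM of the marker genes and of 3 counts are scaled to raw totals. The 5 dpi library entered only the time course and the window. The 18 pairs of libraries within a day differed by more than counting error. Positions are from GENCODE vM21 (GRCm38), another release than the counting used, and promoters from RefSeq. Genes named beside the members are, per comparison, the 2 greatest rises and falls of the lists with at least 100 mean counts, and the 3 genes most like each member. Others named, and the *Mt2* to *Mt1* ratio, were chosen after values were seen.

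Tested on simulated data for 6 against 1 dpi (13684 genes, 200 of them altered), edgeR recovered 104, which was 86% of the log2 changes of 2 and 18% of the log2 changes of 1, beside 10 false calls. Alternatives were other size factors, every gene with at least 1 count, a replicate block, only the days compared, the libraries in which Y-linked counts exceeded *Xist*, and each library left out. Added after seeing the data were fits without 3 dpi and with 1 dpi replicate 1 or 6 dpi replicate 3 alone, and the window weighted by library. Figures were drawn with matplotlib (3.10.9).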

Additional observations from a re-analysis of the deposited data

Results flagged for a closer look

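Of the 10 genes at 3 dpi, the only day with 4 libraries, *Gpx3* had 1 library far from the others. In 3 dpi replicate 2 it was at 12.17 log2 CPM, against 10.29 to 10.58 in the other 3, and the gap was 0.845 of the whole range, above Dixon's 95% critical value for 4 libraries. *Sod3* in the same library came close, at 10.28 against 8.24 to 8.62 log2 CPM and a ratio of 0.814. Chance flags about 1 in 20 such groups, which is 0.5 of the 10 looked at. That rate treats the 10 genes as independent, but 3 dpi replicate 2 also stood apart over all genes compared. Chi-square divided by its degrees of freedom was 174.56 to 229.68 when this library was paired with each of the other 3. Among those 3 it was 24.46 to 38.62. Without 3 dpi replicate 2, edgeR called 3466 of all genes over the time course, against 2099 with all libraries. Why this library differed was not tested.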

How the results depend on the processing

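The 7 genes lower at 6 than at 1 dpi and the 5 lower in the window were also called under the replicate block, which gave 7 and 5, and 6 over the time course, and changed no count of members, though it ended 5 calls of pathway genes, *Slc7a11*, *Gstp1* and *Sod2* in the window (edgeR adjusted p = 0.075, 0.093 and 0.077), *Prdx1* at 3 against 2 dpi (0.082) and *Txnip* at 4 against 3 dpi (0.058). The correlation of deviations from the day means averaged 0.011 in the 30 same-numbered pairs of libraries and -0.0051 in the 72 others. It was above 0.1 in 6 of the 30 (up to 0.20) and in 5 of the 72 (up to 0.15). Whether some libraries were paired cannot be told from these averages. With every gene with at least 1 count, 2 members changed at 3 against 2 dpi (*Mt1*, *Mt2*), 1 at 4 against 3 dpi (*Gclc*) and 2 at 6 against 4 dpi (*Gclm*, *Gpx3*), and DESeq2 called 1 in each. Leaving out single libraries gave 0 to 1 at 4 against 3 dpi, 0 to 3 at 6 against 4 dpi (3 without 6 dpi replicate 3), and 4 to 7 at 6 against 1 dpi. The libraries in which Y-linked counts exceeded *Xist* gave 1 in the window, and 6 dpi replicate 3 alone at 6 dpi gave 1 at 6 against 1 dpi, with *Gpx3* at -0.48. The cause was not tested. Values with no call changed sign for *Nqo1* at 6 against 1 dpi (-0.81 to 0.57 over single libraries left out, the latter without 1 dpi replicate 2) and in the window for *Gclm* (-0.11 to 0.36) and *Sod3* (-0.46 to 0.06), whose -0.11 and 0.06 are without the 5 dpi library, and for the difference of the mean levels of *Nqo1* at 6 and 1 dpi (0.03, or -0.11 with raw library sizes). Over all genes, calls ranged from 1307 to 3757 around 2099 for the time course, 13 to 153 around 25 for 2 against 1, 46 to 1033 around 412 for 3 against 2, 125 to 866 around 380 for 4 against 3, 3 to 1402 around 72 for 6 against 4, 209 to 2577 around 1700 for 6 against 1 dpi and 780 to 1601 around 1050 for the window. *Nqo1* had at most 53 counts in a library, and the part of depth in its interval was not tested.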
